A study of Homo sapiens with 6 samples.

Results

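Expression of 10 Notch pathway genes was followed in TC32 Ewing sarcoma cells after knockdown aimed at the EWS-FLI1 fusion through either partner gene. The 10 genes were the receptors NOTCH1, NOTCH2 and NOTCH3, the ligands JAG1, JAG2 and DLL1, the fringe enzyme LFNG, and the targets HES1, HEY1 and HEY2, taken by symbol from the 26931 gene symbols of the deposited files. TC32 is an established cell line from a Ewing sarcoma, a tumour in which a fusion usually joins the 5′ part of EWSR1 to the 3′ part of the transcription factor gene FLI1. Cells received siNeg as the control, siEWSR1 against EWSR1 or siFLI1 against FLI1, total RNA was taken 48 h after transfection, and each group had 2 libraries, 6 in all. All groups were transfected cells of this 1 line, no untransfected library is among the 6, and the labels do not say whether the libraries of a group came from separate cultures.

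Notch receptors are membrane proteins that are activated by ligands of the Jagged and Delta-like families on a neighbouring cell. Binding leads to cleavage of the receptor, first by an ADAM protease and then by γ-secretase, and the released intracellular domain moves to the nucleus, where it joins the DNA-binding protein RBPJ and a Mastermind coactivator to switch on targets such as the HES and HEY repressors. Fringe enzymes add sugars to the receptor and alter which ligands it answers. In Ewing sarcoma, Notch signalling has been studied as a pathway that the fusion holds down.

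The libraries were of similar depth, with 15159073 to 16298374 fragments implied by the deposited intervals, and 12079 to 12133 genes stood at 1 FPKM or more with siNeg, against 12611 to 12741 in the knockdown libraries. EWSR1 stood at 46.5 to 47.2 FPKM with siNeg, 32.3 to 34.6 with siEWSR1 and 50.2 to 51.2 with siFLI1, and FLI1 at 10.9, 10.4 to 10.6 and 8.56 to 8.98 FPKM. These gene-level values add the normal transcripts to those of a fusion. All 7 markers used for Ewing sarcoma cells, among them CD99 and NKX2-2, were at 1 FPKM or more in every library, and their summed level was 988 to 1011 FPKM with siNeg, 488 to 598 with siEWSR1 and 524 to 571 with siFLI1. Summed blood cell markers lay between 0.621 and 0.874 FPKM and epithelial markers between 2.34 and 3.64 FPKM in all libraries. Within the epithelial markers, 3 of 6 could be tested: ESRP1 fell from 2.41 and 1.24 FPKM with siNeg to at most 0.0758 FPKM, while CLDN4 and KRT14, tested only through their knockdown libraries, rose from at most 0.253 and 0.688 FPKM to at least 1.39 and 1.06. EPCAM and CDH1 were at 0.319 FPKM or less in every library. Endothelial markers summed to 25.1 to 27.0 FPKM with siNeg, 17.9 to 24.1 with siEWSR1 and 25.1 to 26.9 with siFLI1, with 1 of 7 at 1 FPKM or more in each group (EGFL7). The part of these shifts in the Notch results was not tested.

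With each siRNA, 6 of the Notch genes rose, the same 6 in both cases: NOTCH1, NOTCH2, JAG1, JAG2, LFNG and HEY1. NOTCH3 and HES1 passed the test with neither siRNA, and DLL1 and HEY2 were too low to be tested. LFNG and HEY1 had the largest folds and NOTCH2 and JAG1 the smallest of the 6. For NOTCH2, HEY1 and, to a smaller extent, JAG2, the fragments implied by the deposited intervals rose less than the FPKM, and for LFNG they rose more. Values are FPKM, fragments scaled to transcript length and to the library, so levels are per length and relative to each library's total. Genes at 1 FPKM or more in at least 2 libraries were tested with limma on log2(FPKM + 0.5), with Benjamini-Hochberg adjustment over all 13043 genes tested, and a gene was called at an adjusted p under 0.05. With siEWSR1, 33.2% of the genes tested were called higher and 31.0% lower, and 6 of the 8 Notch genes tested were called higher and 0 lower. With siFLI1 the background was 35.7% higher and 29.6% lower, and again 6 of 8 Notch genes were called higher and 0 lower. LFNG was tested only because of its knockdown libraries, so it had to differ. The median log2 change of all genes tested was 0.01 with siEWSR1 and 0.04 with siFLI1. Both comparisons use the same siNeg libraries. Libraries of the 2 groups did not overlap for 7 of the 8 tested Notch genes with siEWSR1, where NOTCH3 overlapped, beside 83.3% of all genes tested, and for 8 of 8 with siFLI1, beside 84.7%, shares near the background.

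**Figure D1:**
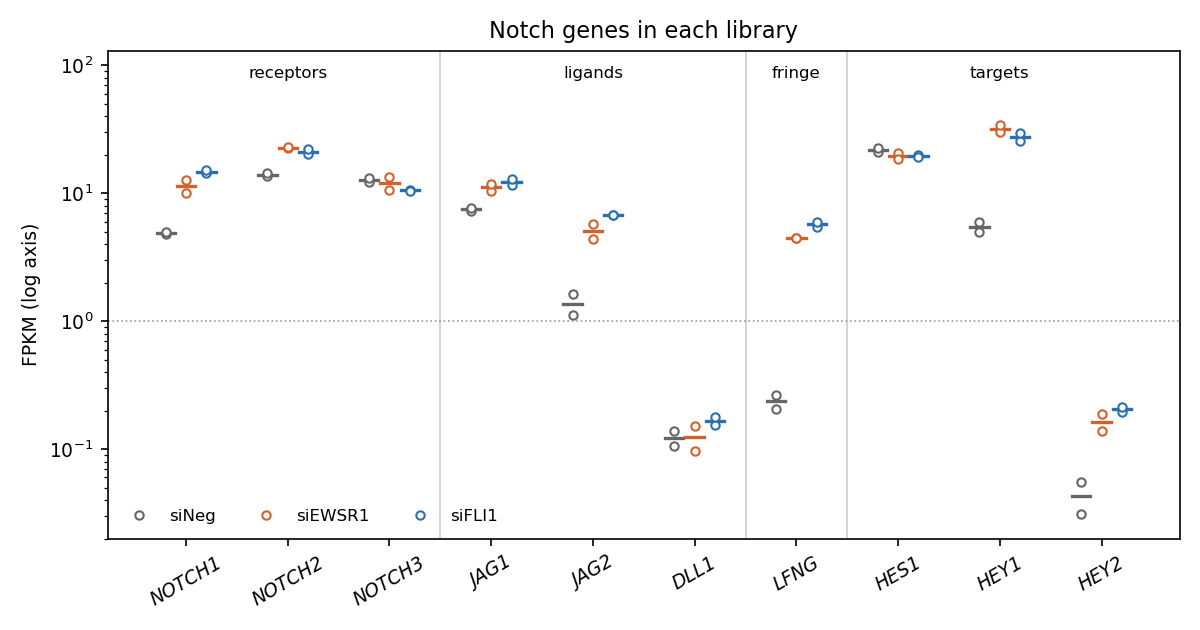
FPKM (log axis) of the 10 Notch genes in each of the 6 libraries, grouped by role. Circles are libraries, short bars are group means of 2 libraries, and the dotted line marks 1 FPKM. The NOTCH1, JAG2, LFNG and HEY1 libraries of both knockdown groups lie well above those of siNeg, while HES1 stays between 18.6 and 22.4 FPKM in all 6.

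Among the receptors, NOTCH1 (hg19, chromosome 9, 139388885 to 139440238) was at 4.79 and 4.98 FPKM with siNeg, 12.8 and 10.0 with siEWSR1, and 14.4 and 15.1 with siFLI1. Every knockdown library was above both siNeg libraries, and both siFLI1 libraries were above both siEWSR1 libraries. The log2 change was 1.13 ± 0.11 (SE, limma adjusted p = 0.000234) with siEWSR1, a 2.19-fold rise, and 1.50 ± 0.11 (adjusted p = 6.69e-05) with siFLI1, a 2.83-fold rise. In RNA from whole cultures, more cells that express a gene and more RNA per cell cannot be told apart.

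NOTCH2 (chromosome 1, 120454176 to 120612317) was the most abundant receptor in every library, at 13.7 and 14.3 FPKM with siNeg, 22.4 and 23.1 with siEWSR1, and 20.1 and 22.2 FPKM with siFLI1. The knockdown groups did not overlap siNeg. Its log2 change was 0.68 ± 0.07 (adjusted p = 0.000226) with siEWSR1 and 0.58 ± 0.07 (adjusted p = 0.000399) with siFLI1, rises of 1.61-fold and 1.50-fold. The deposited intervals imply 1689 and 1672 NOTCH2 fragments with siNeg, 1889 and 1884 with siEWSR1, and 1816 and 1862 with siFLI1, which scaled to each library's implied total are means 1.13 and 1.12 times that of siNeg. Most of the NOTCH2 rise in FPKM was thus not seen in the implied fragments. NOTCH3 had more implied fragments than NOTCH2 in every library (3804 and 3763 with siNeg), though fragments are not scaled to length. Implied fragments are read from the width of the intervals and need not equal the reads of the gene. The cause of the gap between the NOTCH2 FPKM and its implied fragments was not tested. The related gene NOTCH2NL was listed at 5.97 and 6.29 FPKM with siNeg, 5.26 and 4.90 with siEWSR1, and 4.98 and 5.23 with siFLI1. No source used here says how reads shared by this pair were assigned, so the NOTCH2 values are uncertain to that extent.

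NOTCH3 (chromosome 19, 15270444 to 15311792) did not rise with the other receptors. It stood at 12.3 and 13.2 FPKM with siNeg, 13.5 and 10.6 with siEWSR1, and 10.7 and 10.4 FPKM with siFLI1. The siEWSR1 libraries lay on both sides of siNeg, and both siFLI1 libraries lay below it. The log2 change was -0.09 ± 0.11 (adjusted p = 0.523, 95% interval -0.36 to 0.18) with siEWSR1 and -0.26 ± 0.11 (adjusted p = 0.0833, interval -0.53 to 0.01) with siFLI1. With quantile normalization, with median-ratio scaling or in a fit of siFLI1 and siNeg alone, NOTCH3 was called lower with siFLI1, at adjusted p = 0.0494, 0.0472 and 0.0118. Leaving out siEWSR1 replicate 1 or 2, which changes only the estimate of the spread there, gave the same call at adjusted p = 0.0118 and 0.0117. With siEWSR1 the direction turned on 1 library: without its replicate 1 the change was -0.26 (adjusted p = 0.0283) and without its replicate 2 it was 0.084 (adjusted p = 0.382).

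In FPKM, the balance of the receptors shifted. This includes NOTCH2, whose implied fragments were only 1.13 and 1.12 times siNeg, so the sum and the shares below are uncertain to that extent. The NOTCH1 to NOTCH3 ratio does not use NOTCH2. The 3 receptors summed to 30.8 and 32.4 FPKM with siNeg, 48.7 and 43.7 with siEWSR1, and 45.2 and 47.7 with siFLI1. NOTCH1 made up 15.6% and 15.4% of that sum with siNeg, 26.2% and 22.9% with siEWSR1, and 31.8% and 31.6% with siFLI1. NOTCH3 made up 40.0% and 40.6%, then 27.8% and 24.2%, then 23.6% and 21.8%. The NOTCH1 to NOTCH3 ratio was 0.390 and 0.378 with siNeg, 0.945 and 0.948 with siEWSR1, and 1.35 and 1.45 with siFLI1, so NOTCH1 was the lower of the pair in the siNeg and siEWSR1 libraries and the higher in the siFLI1 libraries. Neither these shares nor the ratio overlapped between any of the groups. An exact two-sided permutation test of 2 libraries against 2 cannot go below p = 0.333, the value it gave for each of these NOTCH1 and NOTCH3 shares and their ratio.

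Both Jagged ligands rose. JAG1 (chromosome 20, 10618332 to 10654694), a membrane-bound Notch ligand, stood at 7.32 and 7.67 FPKM with siNeg, 10.4 and 11.8 with siEWSR1, and 11.6 and 12.9 with siFLI1. Neither knockdown group overlapped siNeg. The log2 change was 0.54 ± 0.09 (adjusted p = 0.00185) with siEWSR1 and 0.67 ± 0.09 (adjusted p = 0.000644) with siFLI1, rises of 1.45-fold and 1.59-fold.

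JAG2 (chromosome 14, 105607318 to 105635161), the second Jagged ligand, stood at 1.11 and 1.62 FPKM with siNeg, 5.80 and 4.39 with siEWSR1, and 6.80 and 6.81 with siFLI1. Again no knockdown library reached down to siNeg. The rise was 1.59 ± 0.16 on the log2 scale (adjusted p = 0.00029) with siEWSR1 and 1.98 ± 0.16 (adjusted p = 0.000103) with siFLI1, with means 3.73 and 4.98 times that of siNeg. In implied fragments scaled to each library's implied total, the means were 3.46 and 4.09 times that of siNeg. JAG1 was thus 6.58 and 4.73 times JAG2 with siNeg, 1.80 and 2.68 times with siEWSR1, and 1.70 and 1.90 times with siFLI1. Summed Jagged expression was 8.43 and 9.29 FPKM with siNeg, 16.2 in both siEWSR1 libraries, and 18.4 and 19.7 with siFLI1.

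DLL1 (chromosome 6, 170591294 to 170599697), the one Delta-like ligand among the 10 genes, was near the floor of the assay. It was listed at 0.139 and 0.106 FPKM with siNeg, 0.151 and 0.0966 with siEWSR1, and 0.154 and 0.180 with siFLI1, which the deposited intervals make 11 to 20 fragments a library. The siEWSR1 and siNeg libraries overlapped. A fit without the filter on low values gave log2 changes of 0.00 (adjusted p = 1) with siEWSR1 and 0.10 (adjusted p = 0.242) with siFLI1.

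LFNG (chromosome 7, 2552163 to 2568810), which encodes the Golgi sugar transferase lunatic fringe, went from hardly detected to several FPKM. It stood at 0.206 and 0.266 FPKM with siNeg, where the deposited 95% intervals were 0.0891 to 0.323 and 0.126 to 0.407 and the implied fragments 12 and 14. The siEWSR1 libraries were at 4.50 and 4.46 FPKM and the siFLI1 libraries at 5.43 and 5.98. All 4 knockdown libraries were far above both siNeg libraries, and both siFLI1 libraries were above both siEWSR1 libraries. The mean FPKM was 19.0 times that of siNeg with siEWSR1 and 24.2 times with siFLI1. On the log2(FPKM + 0.5) scale, which understates the change of low genes, the rise was 2.76 ± 0.09 (adjusted p = 4.74e-06) and 3.07 ± 0.09 (adjusted p = 2.76e-06). Depending on the pseudocount and other settings, these values ran from 2.13 to 3.77 and from 2.44 to 4.11, and the call held in each setting that tested the gene.

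LFNG is not the only fringe gene in these cells. RFNG, radical fringe, exceeded LFNG 62.6 and 54.7 times with siNeg, 4.14 and 3.75 times with siEWSR1, and 3.86 and 3.38 times with siFLI1. MFNG, manic fringe, named here after its values were seen, was listed at 0.0139 and 0.0150 FPKM with siNeg, 0.176 and 0.212 with siEWSR1, and 0.230 and 0.183 with siFLI1, too low to be tested. RFNG was therefore the most abundant fringe transcript in every library, before and after LFNG rose.

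RBPJ binds a short core, here searched as TGGGAA on both strands. The bases before the starts of LFNG, HES1 and HEY2 are shown because HES1 and LFNG differed so much in response. RefSeq (GRCh38.p14) promoters were matched for 8 of the 10 genes, 9 starts in all, and DLL1 and HEY1 were not matched. The 250 bases before each start are printed 5′ to 3′ on the gene's strand, with RBPJ cores (TTCCCA where the core is on the other strand) in capitals. The core is present in 20.85% of the 35116 promoters of the table over the same length.
HES1, chr3:194135898-194136147 (+): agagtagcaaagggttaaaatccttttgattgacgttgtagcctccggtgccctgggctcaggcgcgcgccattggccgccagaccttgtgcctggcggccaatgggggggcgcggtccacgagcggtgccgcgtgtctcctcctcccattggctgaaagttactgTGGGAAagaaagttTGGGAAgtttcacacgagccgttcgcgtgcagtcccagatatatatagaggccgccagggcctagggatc
HEY2, chr6:125749382-125749631 (+): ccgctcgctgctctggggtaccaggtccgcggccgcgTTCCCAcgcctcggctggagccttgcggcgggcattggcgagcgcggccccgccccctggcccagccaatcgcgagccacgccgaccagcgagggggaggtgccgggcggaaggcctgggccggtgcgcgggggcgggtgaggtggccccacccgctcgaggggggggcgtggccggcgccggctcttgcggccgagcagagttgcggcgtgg
LFNG, first start, chr7:2512279-2512528 (+): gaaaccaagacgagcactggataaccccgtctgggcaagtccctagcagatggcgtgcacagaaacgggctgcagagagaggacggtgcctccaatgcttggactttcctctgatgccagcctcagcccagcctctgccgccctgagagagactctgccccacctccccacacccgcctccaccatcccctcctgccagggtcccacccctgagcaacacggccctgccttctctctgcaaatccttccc
LFNG, second start, chr7:2517613-2517862 (+): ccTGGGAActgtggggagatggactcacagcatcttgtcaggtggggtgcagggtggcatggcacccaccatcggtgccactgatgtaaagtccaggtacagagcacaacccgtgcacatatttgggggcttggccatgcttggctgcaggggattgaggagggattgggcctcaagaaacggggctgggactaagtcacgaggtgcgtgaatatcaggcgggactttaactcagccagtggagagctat
HES1 held 2 cores, which begin 84 and 70 bases before the start. HEY2 held 1 core 213 bases before its start and the second LFNG start 1 core at 248 bases, while the first LFNG start, NOTCH1, NOTCH2, NOTCH3, JAG1 and JAG2 held none in this window. GGAAGGAA, a pair of the GGAA repeats that EWS-FLI1 is known to bind, was in none of the 9 windows on either strand, and in 3.064% of all promoters of the table. These are matches of letters, not binding sites, and no window of DLL1 or HEY1 was searched.

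Of the target genes, HEY1 (chromosome 8, 80676245 to 80680098), a bHLH repressor and direct Notch target, rose most. It stood at 5.02 and 5.94 FPKM with siNeg, 30.1 and 33.9 with siEWSR1, and 25.7 and 29.6 with siFLI1. Every knockdown library was more than 4 times either siNeg library. The log2 change was 2.45 ± 0.11 (5.45-fold, adjusted p = 1.24e-05) with siEWSR1 and 2.24 ± 0.11 (4.71-fold, adjusted p = 1.37e-05) with siFLI1. The implied HEY1 fragments were 349 and 388 with siNeg, 1326 and 1473 with siEWSR1, and 1199 and 1284 with siFLI1, or scaled means 3.82 and 3.44 times that of siNeg, where the mean FPKM was 5.85 and 5.05 times as high. The cause of this gap was not tested.

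HES1 (chromosome 3, 193853931 to 193856401), the best-known Notch target and the gene with the 2 cores shown above, did not rise with HEY1. It stood at 20.9 and 22.4 FPKM with siNeg, 20.7 and 18.6 with siEWSR1, and 20.0 and 19.4 with siFLI1. All 4 knockdown libraries were slightly below both siNeg libraries. The log2 change was -0.14 ± 0.07 (adjusted p = 0.134, 95% interval -0.31 to 0.03) with siEWSR1 and -0.13 ± 0.07 (adjusted p = 0.147, interval -0.31 to 0.04) with siFLI1, intervals that hold no rise of the size seen for HEY1. Without siEWSR1 replicate 1 the change with siEWSR1 was -0.22 and was called lower (adjusted p = 0.0423).

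The ratio of HEY1 to HES1 therefore crossed 1. It was 0.240 and 0.265 with siNeg, 1.45 and 1.83 with siEWSR1, and 1.28 and 1.53 with siFLI1. HES1 was the more abundant of the pair in both siNeg libraries and HEY1 in all 4 knockdown libraries. In implied fragments, which are not scaled to length, the ratio was 0.345 and 0.383, then 1.35 and 1.74, then 1.36 and 1.50. The exact permutation p of the FPKM ratio was 0.333 for each siRNA against siNeg, the smallest that 2 against 2 libraries can give.

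HEY2 (chromosome 6, 126070732 to 126082415), the paralog of HEY1, did not exceed 0.215 FPKM in any library. It was listed at 0.0309 and 0.0557 FPKM with siNeg, 0.137 and 0.188 with siEWSR1, and 0.194 and 0.215 with siFLI1, or 3 and 5, 13 and 17, and 17 and 19 implied fragments. All 4 knockdown libraries were above both siNeg libraries. The fit without the filter on low values gave log2 changes of 0.29 (adjusted p = 0.0117) and 0.37 (adjusted p = 0.005), which depend on the pseudocount at so low a level.

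**Figure D2:**
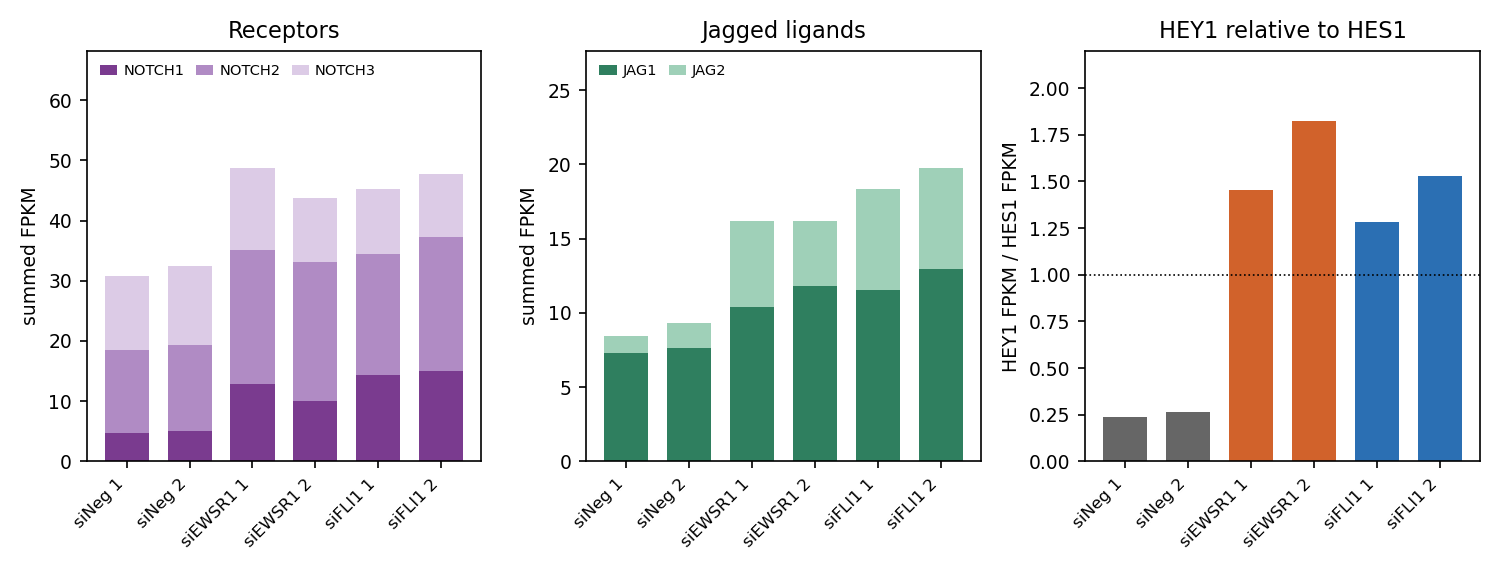
Summed FPKM of the 3 receptors (left) and of the Jagged ligands (middle), and the ratio of HEY1 to HES1 FPKM (right), 1 bar per library. NOTCH1 and JAG2 take a larger part of their sums in the 4 knockdown libraries, and the HEY1 to HES1 ratio is 0.240 to 0.265 with siNeg and 1.28 to 1.83 in the knockdown libraries, across the dotted line at 1.

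The order of levels changed with these shifts. With siNeg the mean FPKM ran from HES1 (21.7 ± 1.04 SD, n = 2) through NOTCH2 (14.0 ± 0.431), NOTCH3 (12.7 ± 0.624), JAG1 (7.49 ± 0.246), HEY1 (5.48 ± 0.653) and NOTCH1 (4.89 ± 0.136) to JAG2 (1.37 ± 0.360), LFNG, DLL1 and HEY2, and no neighbours in this order overlapped. HEY1 took the first place with siEWSR1 (32.0 ± 2.66) and with siFLI1 (27.6 ± 2.76), followed in both by NOTCH2 and HES1. With siEWSR1, NOTCH3, NOTCH1 and JAG1 overlapped one another at means of 12.0, 11.4 and 11.1 FPKM, as did JAG2 and LFNG at 5.10 and 4.48, and HEY2 and DLL1. With siFLI1, NOTCH1 (14.7) was above JAG1 (12.3) and NOTCH3 (10.6), and no neighbours overlapped.

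The siRNAs were then compared with each other. With siFLI1, 3.07% of genes were higher and 0.790% lower than with siEWSR1 (401 and 103 genes, but 343 and 209 after quantile normalization and 351 and 159 after median-ratio scaling). None of the 8 Notch genes tested passed in either direction by limma, and 3 had an unadjusted p under 0.05, all higher with siFLI1. These were NOTCH1, with a log2 difference of 0.37 ± 0.11 (adjusted p = 0.119, 95% interval 0.10 to 0.63), JAG2, with 0.40 ± 0.16 (adjusted p = 0.213), and LFNG, with 0.32 ± 0.09 (adjusted p = 0.101). Without siEWSR1 replicate 1 the NOTCH1 difference was 0.53 and passed (adjusted p = 0.0343). HEY1 went the other way, with a difference of -0.21 (adjusted p = 0.301), and its groups did not overlap either. The differences of NOTCH2 (-0.10), NOTCH3 (-0.17), JAG1 (0.14) and HES1 (0.01) had adjusted p between 0.388 and 0.971. Libraries of the siRNAs did not overlap for 5 of the 8 tested genes, beside 52.9% of all genes tested.

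**Figure D3:**
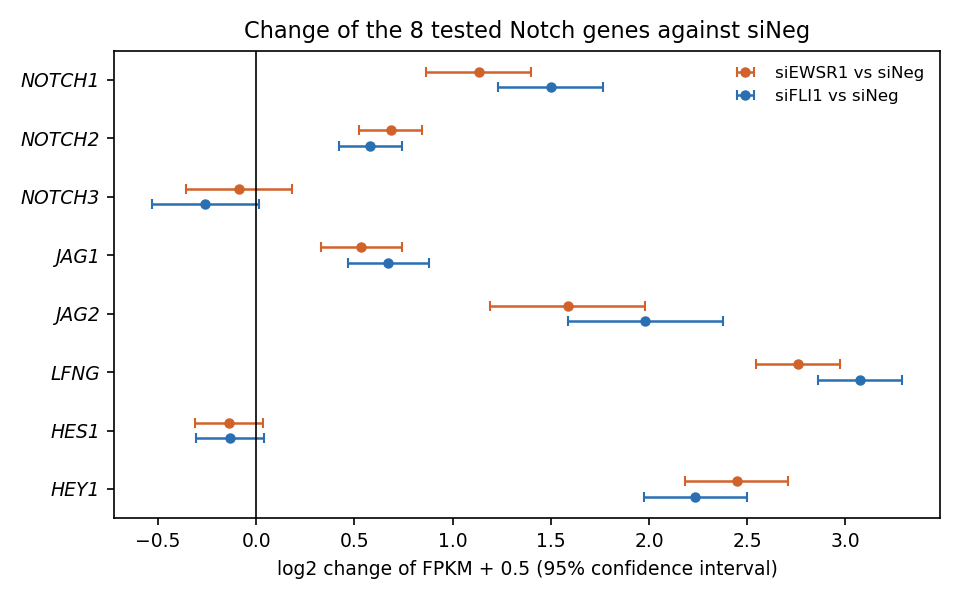
Log2 change of FPKM + 0.5 against siNeg for the 8 Notch genes tested, with 95% confidence intervals from limma. The intervals of NOTCH3 and HES1 include 0 with both siRNAs, while those of the other 6 genes lie above 0, with LFNG and HEY1 farthest out.

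Genes whose course over the 6 libraries was closest to each of the 8 tested were taken from 11702 candidates, by Euclidean distance between log2(FPKM + 0.5) values centred on the siNeg mean. For LFNG these were COL6A1, IGFBP5 and S1PR3, at distances of 0.279, 0.295 and 0.319. COL6A1, a collagen VI chain, was at a mean of 13.5 FPKM with siNeg, 89.7 with siEWSR1 and 104 with siFLI1. HEY1 was closest to EPHB3 (0.193), TCF7L2 (0.220) and the histone gene HIST1H2BK (0.225), whose reads may be shared with other histone copies. EPHB3, an Eph receptor, had means of 1.72, 12.4 and 10.6 FPKM, and TCF7L2, a transcription factor of the Wnt pathway, 4.87, 28.2 and 25.9. NOTCH1 was closest to CTXN1, ROGDI and PRKAR1B (0.151 to 0.214), with CTXN1 at 8.26, 18.2 and 24.5 FPKM. JAG2 had no neighbour nearer than LIMS2 and SLC6A6 at 0.351 and 0.353, followed by FRMD8. NOTCH2 lay near ZNF737, NOL6 and POLR3B and JAG1 near GFOD2, CTNNBIP1 and STARD4-AS1. HES1 lay near ZNF395, DPYSL5 and RNPS1, and NOTCH3 near CABIN1, OGFOD2 and HSD11B2. These are likenesses over 6 libraries with no test.

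The other genes of the pathway were taken from 10 lists by role, 61 genes beside the 10 described, of which 50 could be tested, 3 of them only through the knockdown libraries. With siEWSR1, 26 were called higher, 11 lower and 13 neither, beside 33.2% higher and 31.0% lower of all genes tested. With siFLI1, 27 were called higher, 10 lower and 13 neither, beside 35.7% and 29.6%. Their median log2 change was 0.21 with both, beside 0.01 and 0.04 for all genes tested, and 22 were higher and 9 lower with both siRNAs. Leaving out siFLI1 replicate 2 left 17 called higher with siFLI1. Leaving out siNeg replicate 1 or siFLI1 replicate 1 left 6 called lower. Changes ran both ways in this wider pathway, with more genes called higher than lower, where the calls over all genes tested were closer to even. No test of the lists as sets was run, and the same background shares apply to the counts by role below.

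**Figure D4:**
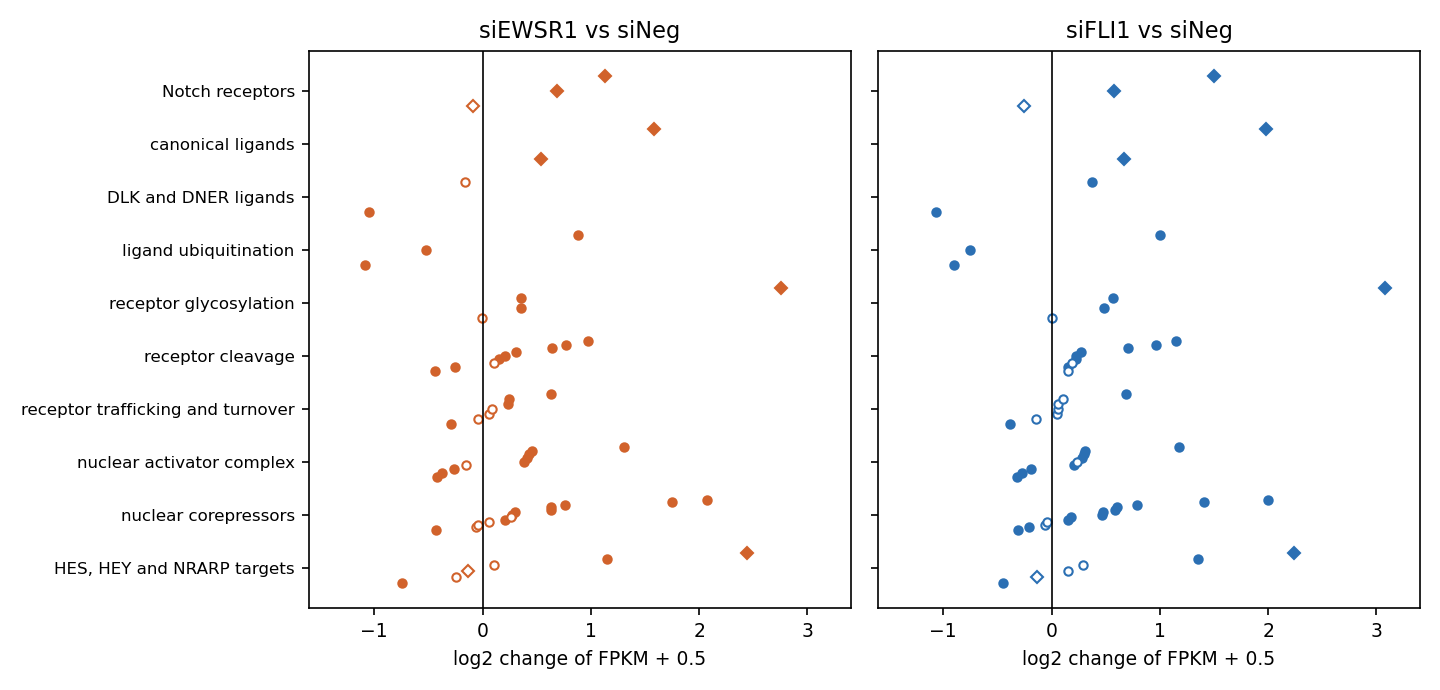
Log2 change of FPKM + 0.5 against siNeg for each tested gene of 10 pathway lists, with siEWSR1 (left) and siFLI1 (right). Diamonds are the 8 Notch genes described above, circles are other genes, and filled symbols passed the adjusted p threshold of 0.05. Ligand ubiquitination and DLK and DNER ligands hold genes at both ends, and most corepressors lie to the right of 0.

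The remaining canonical receptor and ligands were low. NOTCH4 was between 0.0376 and 0.0768 FPKM and DLL4 between 0.0254 and 0.0870 in all libraries. DLL3, which is known to act within the cell on Notch rather than to activate it from outside, stood at 0.773 and 0.708 FPKM with siNeg, 0.591 and 0.592 with siEWSR1, and 0.639 and 0.612 with siFLI1. None of these 3 could be tested, so JAG1 and JAG2 were the only canonical ligands above 1 FPKM.

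Among the non-canonical ligands DNER fell. It stood at 16.5 and 15.6 FPKM with siNeg, 7.81 and 7.22 with siEWSR1, and 7.99 and 6.83 with siFLI1, log2 changes of -1.05 (adjusted p = 0.000123) and -1.07 (adjusted p = 9.94e-05). DLK2 was at 1 FPKM or more only in the siFLI1 libraries, at 1.14 and 1.06 FPKM, and so was tested only because it is high there. It had log2 changes of -0.16 (adjusted p = 0.214) with siEWSR1 and 0.38 (adjusted p = 0.0194) with siFLI1. After quantile normalization these were -0.83, called lower (adjusted p = 0.00271), and -0.16, and without any 1 siNeg or siFLI1 library the change with siFLI1 did not pass (adjusted p = 0.0501 to 0.0882). DLK1, named here after its values were seen, was listed at 0.00568 and 0 FPKM with siNeg, 0.530 and 0.341 with siEWSR1, and 0.729 and 0.586 with siFLI1, below the level tested.

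The ubiquitin ligases that act on Notch ligands went in opposite directions, 1 higher and 2 lower of 3 tested with each siRNA. MIB1, a main ligase for ligand endocytosis, fell from 12.7 and 12.3 FPKM with siNeg to 8.35 and 8.81 with siEWSR1 and 6.90 and 7.56 with siFLI1 (adjusted p = 0.000816 and 0.000153). NEURL1B fell by 1.08 and 0.90 on the log2 scale (adjusted p = 0.000157 and 0.000302). MIB2 rose by 0.88 and 1.00 (adjusted p = 0.00117 and 0.000638), from 5.01 and 5.64 FPKM with siNeg to 8.91 to 11.7 in the knockdown libraries.

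Of the other glycosylation genes, 2 of 3 tested were called higher with each siRNA. RFNG rose by 0.35 (adjusted p = 0.00942, but 0.0609 without siNeg replicate 1) and 0.57 (adjusted p = 0.00114) on the log2 scale. POGLUT1, which adds glucose to the receptor, rose by 0.36 (adjusted p = 0.0116, not passing in 3 of the alternative settings) and 0.48 (adjusted p = 0.00333). These changes are small beside that of LFNG.

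Receptor cleavage genes were mostly higher, 6 of 9 with siEWSR1 (2 lower) and 7 of 9 with siFLI1 (0 lower). Over all genes tested, 33.2% were higher and 31.0% lower with siEWSR1, and 35.7% and 29.6% with siFLI1. FURIN, the convertase that makes the first cut in the maturing receptor, rose from 16.3 and 17.1 FPKM with siNeg to 28.5 and 29.2 with siEWSR1 and 32.1 and 34.2 with siFLI1 (adjusted p = 8.42e-05 and 2.98e-05). Of the γ-secretase subunits, PSEN2 rose by 0.97 and 1.15 on the log2 scale (adjusted p = 0.00107 and 0.000482). NCSTN rose by 0.64 and 0.71 (adjusted p = 7.28e-05 and 4.23e-05). The 2 genes called lower with siEWSR1 were ADAM17 (-0.25, adjusted p = 0.00778) and the γ-secretase subunit APH1B (-0.44, adjusted p = 0.00413). With siFLI1 they changed by 0.15 (adjusted p = 0.0546) and 0.27 (adjusted p = 0.0302, but 0.112 under quantile normalization). Compared directly, siFLI1 was above siEWSR1 for 4 genes of the wider pathway and below it for 0. These were DLK2 (0.54, adjusted p = 0.0486), which was tested only through its siFLI1 libraries, and, named here after their values were seen, the protease ADAM17 (0.40, adjusted p = 0.0246), the subunit APH1B (0.71, adjusted p = 0.017) and the coactivator MAML1 (0.47, adjusted p = 0.034). Each of these 4 calls was lost in 4 or more alternative settings, with adjusted p up to 0.215, 0.182, 0.147 and 0.214.

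Among 7 tested genes of receptor trafficking and turnover, 3 were higher and 1 lower with siEWSR1, and 1 was higher and 1 lower with siFLI1. NUMBL rose by 0.64 and 0.68 (adjusted p = 0.000427 and 0.000287) and the ubiquitin ligase ITCH changed by -0.30 and -0.38 (adjusted p = 0.00589 and 0.00189). The Notch inhibitor NUMB rose by 0.24 with siEWSR1 (adjusted p = 0.012, not passing in 3 alternative settings), and its change with siFLI1 was 0.06 (adjusted p = 0.397).

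The nuclear activator complex was mixed, with 5 of 9 genes higher and 3 lower with each siRNA. Of the higher genes, MAML3 was tested only through its knockdown libraries. The shares over all genes tested were 33.2% higher and 31.0% lower with siEWSR1, and 35.7% and 29.6% with siFLI1. RBPJ, named here after its values were seen, stood at 14.1 and 14.3 FPKM with siNeg, 10.4 and 11.3 with siEWSR1, and 11.0 and 12.4 with siFLI1, log2 changes of -0.37 (adjusted p = 0.00573) and -0.27 (adjusted p = 0.0194). The latter did not pass without siNeg replicate 1 (adjusted p = 0.0735), siNeg replicate 2 (0.0856) or siFLI1 replicate 1 (0.104). SNW1, a cofactor of RBPJ, changed by -0.42 and -0.32 (adjusted p = 0.000771 and 0.00268). The acetyltransferase gene KAT2B rose by 1.31 and 1.18 (adjusted p = 9.8e-05 and 0.000127). CREBBP, also an acetyltransferase gene, rose by 0.46 and 0.28 (adjusted p = 0.000698 and 0.00551). The acetyltransferase genes EP300 and KAT2A, named here after their values were seen, went in opposite directions. EP300 was called higher with each siRNA, and KAT2A lower, by -0.26 and -0.19 (adjusted p = 0.00497 and 0.0169).

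Corepressors, with which RBPJ and the HES and HEY proteins act, were higher for 8 of 13 genes with siEWSR1 (1 lower) and 9 of 13 with siFLI1 (2 lower). Beside them, 33.2% of all genes tested were higher and 31.0% lower with siEWSR1, and 35.7% and 29.6% with siFLI1. TLE1, of the Groucho family that HES proteins recruit, stood at 0.302 and 0.368 FPKM with siNeg, 2.97 and 3.03 with siEWSR1, and 2.54 and 3.14 with siFLI1 (log2 changes of 2.07 and 2.00, adjusted p = 2.68e-05 and 2.43e-05), and was tested only through its knockdown libraries. TLE4, of the same family, rose by 1.75 and 1.41 (adjusted p = 5.39e-05 and 0.000105).

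Of the other HES, HEY and NRARP genes, 4 could be tested, with 1 higher and 1 lower for each siRNA. HEYL, the third HEY gene, stood at 1.25 and 1.51 FPKM with siNeg, 3.96 and 3.38 with siEWSR1, and 3.94 and 4.69 with siFLI1, and rose by 1.15 ± 0.12 (adjusted p = 0.000339) and 1.35 ± 0.12 (adjusted p = 0.000152). All 3 HEY genes were thus higher in every knockdown library than in either siNeg library, though HEY2 was not tested and rests on 3 to 19 implied fragments. Groups also did not overlap, in either direction, for 83.3% of all genes tested with siEWSR1 and 84.7% with siFLI1. NRARP, a feedback target that marks Notch activity in many tissues, stood at 1.85 and 1.95 FPKM with siNeg, 2.16 and 2.01 with siEWSR1, and 2.29 and 2.05 FPKM with siFLI1. Its log2 changes of 0.10 (adjusted p = 0.338) and 0.15 (adjusted p = 0.172) did not pass and turned to -0.14 and -0.13 after quantile normalization.

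None of the 3 HES genes tested (HES1, HES4 and HES6) passed as higher in the fit of all 6 libraries. HES6, known to counter HES1, stood at 14.3 and 16.7 FPKM with siNeg, 10.8 and 7.45 with siEWSR1, and 11.4 and 11.0 with siFLI1. It fell by 0.75 ± 0.16 on the log2 scale with siEWSR1 (adjusted p = 0.00713) and by 0.45 ± 0.16 with siFLI1 (adjusted p = 0.0481, not passing in 9 alternative settings and as high as 0.212). HES4 spread widely with siEWSR1, at 5.52 and 2.69 FPKM beside 4.28 and 5.13 with siNeg and 5.92 and 5.75 with siFLI1, and its log2 changes of -0.24 and 0.29 did not pass (adjusted p = 0.46 and 0.383). Without siEWSR1 replicate 1 the HES4 change with siEWSR1 was -0.70 and passed (adjusted p = 0.00328), and without replicate 2 it was 0.21. In a fit of siFLI1 and siNeg alone, or without either siEWSR1 library, the rise of HES4 with siFLI1 passed, at adjusted p between 0.0374 and 0.039. HES7 was listed at 0.638 and 0.836 FPKM with siNeg and 0.149 to 0.264 in the knockdown libraries, HES5 at 0 and 0.0249 and then 0.123 to 0.142, and HES2 at 0.0138 or less in all libraries. These 3 were too low to be tested. The fit without the filter on low values gave HES7 log2 changes of -0.81 and -0.78 (adjusted p = 0.00655 and 0.00689) and HES5 0.30 and 0.29 (adjusted p = 0.00316 and 0.00324), at levels where the value depends on the pseudocount.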

How the data were processed

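The authors deposited gene-level FPKM values with 95% intervals for the 6 libraries. Per the submitters' processing notes, they used TopHat2 2.0.13, Cufflinks, Cuffdiff and hg19. For the annotation, the strand setting and multi-mapped reads, nothing is given in the sources used here. Files hold 27442 rows, 380 symbols stood on more than 1 row and were summed, and each of the 10 Notch genes stood on 1 row. Of their 10 rows, 0 had a failed status. No other gene overlapped them except microRNA genes listed at 0. FPKM is relative to the library's total, so a few abundant RNAs can shift the rest. Fragments were implied from each deposited interval, taking each bound to lie at a distance of 2 × FPKM/√fragments from the value. This takes the intervals to cover counting error only, which no source used here states, so implied fragments need not equal a gene's reads.

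Values were fitted with limma 3.58.1 (R 4.3.3) as log2(FPKM + 0.5), with a mean-variance trend and 1 fit over the 3 groups, on the 13043 genes at 1 FPKM or more in at least 2 libraries (3 residual and 3.39 prior degrees of freedom). P-values are two-sided, Benjamini-Hochberg adjusted over all genes tested, with a threshold of 0.05. The labels do not say that libraries of a group were separate cultures, so the p-values rest on a spread between samples that may be technical. With n = 2 a group the spread is poorly known, and gene sums and ratios were tested by exact permutation.

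The genes and the pathway lists were chosen with earlier results of these data known. Named genes are the 10 Notch genes and all other canonical receptors, ligands and HES, HEY or NRARP genes. The 3 nearest genes of each tested Notch gene are also named. From each other pathway list, up to 3 called genes were taken (4 for the proneural and ID list). These had the largest absolute value of the log2 change averaged over both siRNAs, so genes that moved in opposite directions ranked low. Some genes taken by this rule are not reported here. Promoter sequences are from RefSeq, GRCh38.p14, and were not set against the hg19 coordinates of the files. The alternatives were another pseudocount, filter, scaling or variance trend, a replicate block, a fit of 2 groups, and each library left out.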

Additional observations from a re-analysis of the deposited data

How the results depend on the processing

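The count of Notch genes called higher than siNeg was 6 with either siRNA under other pseudocounts, scalings and variance trends, in fits of 2 groups and with each library left out. It was 7 without the filter on low values, which adds HEY2, and 4 at a mean of at least 5 FPKM, where JAG2 and LFNG are not tested. Counts of Notch genes called lower were less stable. With siFLI1 it was 1 rather than 0 (NOTCH3) under quantile normalization, median-ratio scaling and a fit of 2 groups, and 0 to 1 with a library left out. With siEWSR1 it was 0 to 2 with a library left out (NOTCH3 and HES1 without siEWSR1 replicate 1). Between the siRNAs, 0 to 1 Notch genes were higher with siFLI1 with a library left out. For the wider pathway, 17 genes were called higher with siEWSR1 at a mean of at least 5 FPKM, where fewer genes are tested. With a library left out, 17 to 27 were higher and 6 to 10 lower with siFLI1. Between the siRNAs the 4 genes higher with siFLI1 became 0 without the filter, 1 in a fit of 2 groups and 0 to 5 with a library left out, and 1 rather than 0 was lower under quantile normalization and a robust trend. The cause of these shifts was not tested.

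Signs turned for values near 0. With siEWSR1 and a library left out, NOTCH3 ran from -0.26 (without siEWSR1 replicate 1) to 0.084 (without replicate 2), and HES4 from -0.70 to 0.21 in the same order. Under quantile normalization NRARP was -0.14 with siEWSR1 and -0.13 with siFLI1, and DLK2 -0.16 with siFLI1. The HES1 difference between the siRNAs was -0.033 under quantile normalization and -0.027 under median-ratio scaling, and with a library left out ran from -0.071 (without siEWSR1 replicate 2) to 0.082 (without siEWSR1 replicate 1).

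The labels give each group replicates 1 and 2 but do not say what a number shares, and deviations of same-numbered libraries correlated at -0.14 (siNeg and siEWSR1), -0.05 and 0.07 across genes. With the replicate number as a block, 6 Notch genes were higher and 0 lower with each siRNA, and 24 wider pathway genes were higher with either, with 11 lower with siEWSR1 and 9 with siFLI1. With the numbers crossed between siNeg and siEWSR1, an alternative chosen after seeing the data, 6 Notch genes were higher and 0 lower, and 26 and 11 wider pathway genes. With 2 libraries a group, small changes such as those of NOTCH3 and HES1 could not be resolved, and DLL1 and HEY2 rest on 3 to 20 implied fragments a library.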

Other observations

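HES and HEY proteins are known to restrain proneural bHLH factors, and ID proteins to bind the E-proteins that those factors need, so a list of 19 such genes was also described. Of these, 8 could be tested, 2 of them only through the knockdown libraries, and 6 were higher and 1 lower with each siRNA, beside 33.2% higher and 31.0% lower of all genes with siEWSR1 and 35.7% and 29.6% with siFLI1. The 6 higher genes were ID1, ID3, ATOH8 and the E-protein genes TCF3, TCF4 and TCF12, which rose by only 0.24 to 0.57 on the log2 scale. Of these 6, ATOH8 was tested only because of its knockdown libraries, so it had to differ. Several classical proneural genes were nearly silent, with NEUROG1, NEUROG2 and NEUROD1 at 0.0190 FPKM or less in every library and ATOH1 and NEUROG3 listed at 0 in all 6. OLIG1 and OLIG2 were also listed at 0 in all 6.

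The ID genes differed among themselves. ID3 rose from 36.1 FPKM in both siNeg libraries to 220 and 200 with siEWSR1 and 221 and 239 with siFLI1, by 2.52 and 2.65 on the log2 scale (limma adjusted p = 2.77e-06 and 1.96e-06). ID1 rose by 0.89 and 1.10 (adjusted p = 0.000928 and 0.000346). ID2 stood at 271 and 254 FPKM with siNeg, 135 and 102 with siEWSR1, and 119 and 111 with siFLI1, and fell by 1.15 and 1.18 (adjusted p = 0.000356 and 0.000289). ID2 was thus the higher of the pair in both siNeg libraries and ID3 in all 4 knockdown libraries, as with HES1 and HEY1. ATOH8, an atypical member of the family, went from 0.607 and 0.569 FPKM with siNeg to between 3.28 and 3.47 in the knockdown libraries.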
